A study of Homo sapiens with 6 samples.

Results

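DNA double-strand break and crosslink repair was followed through 39 genes in Huh-7 cells, an established human hepatocellular carcinoma line, with and without amiloride. The genes were chosen by name from the pathway, with earlier results of these data known, and all 39 of 39 were read by the array, among 18674 genes that had at least 3 probe sets of their own. They comprised 9 genes of break signalling, 9 of end joining and its ligases, 11 of homologous recombination and 10 of the Fanconi anemia pathway, and together held 1297 of 357582 probe sets annotated to a single gene. Total RNA was hybridised to Human Exon 1.0 ST arrays, which read each gene with many short probe sets along its exons. The amiloride group comprised 3 arrays from cells given 0.5 mM amiloride for 24 hours, and the control group 3 arrays from untreated Huh-7 cells, each array labelled a biological replicate. Amiloride was dissolved in DMSO, and whether the control cells received DMSO is not stated in the sources used here. Nothing in the labels says that replicates of a group came from separate cultures, so p-values measure the spread between these arrays, which may be technical.

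A broken chromosome is first bound by the MRE11-RAD50-NBN complex, which recruits and activates the kinase ATM, while ATR answers to single-stranded DNA and acts through the checkpoint kinase CHEK1. The ends are then either joined directly by Ku, DNA-PKcs, XRCC4 and ligase IV, or resected and copied from the sister chromatid with BRCA1, BRCA2, PALB2 and their partners. Crosslinks between the strands stall replication forks, where FANCM and the Fanconi anemia core complex lead to the ubiquitination of FANCD2 and FANCI and hand the lesion to recombination.

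Each value below is a gene level, the median of the log2 intensities over all probe sets of a gene minus the same array's median gene, and a difference is amiloride minus control on that log2 scale. No detection call was used, so a fold is given only for members that lay above the median gene on all 6 arrays. The deposited arrays were not on one scale. The 2 arrays of replicate 1 were bright, with median intensities of 12 for amiloride and 13.1 for control, and the 4 others lay between 4.71 and 6.42. Control replicate 1 stood apart, its gene levels correlating across genes with those of the other arrays at 0.793 to 0.842, whereas the highest correlation of each other array was 0.932 or more. All 8 measured hepatocyte markers lay above the array median on every array (summed level 11.8 to 13.3 under amiloride and 12.1 to 12.6 in control). Of 4 measured leukocyte markers 3 lay below it on every array, including the defining PTPRC and CD3E, and LYZ lay above it. All 3 endothelial markers and 1 of 4 fibroblast markers lay below it on every array.

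No repair gene passed the test. With limma and Benjamini-Hochberg adjustment over 18674 genes, 0 of 39 members had an adjusted p under 0.05 in either direction, against 2 genes higher (0.0107%) and 0 lower (0%) among all genes, and the lowest adjusted p of a member was 0.268. At an unadjusted p under 0.05, 7 members were higher (17.9%, against 7.89% of all genes) and 1 was lower (2.56%, against 3.09%). The same 8 were the members whose 3 amiloride arrays did not overlap the 3 control arrays. RAD50, CHEK1, XRCC4, XRCC6, RAD51C, FANCM and FANCC were higher on all amiloride arrays (17.9%, against 10.2% of all genes), and PRKDC was lower (2.56%, against 8.19%). With 3 arrays per group, the smallest two-sided p that exact permutation allows is 0.1. The median difference was 0.02 over the members and -0.06 over all genes, and 24 members lay above the latter and 15 below. In bulk RNA, fewer cells holding a transcript and less of it in each cell cannot be told apart.

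The direction of many members depended on which arrays were compared. Control replicate 1 was the lowest of the 6 arrays for 18 of 39 members (46.2%, against 29.9% of all genes), and for 6 of the 7 members that were higher without overlap. The lowest array of these 7 had to be a control, and the share over all genes of that kind was not computed. Between the 2 bright arrays the median difference of the members was 0.56, and between the 2 amiloride and 2 control arrays of lower brightness it was -0.05, where all genes had medians of -0.07 and -0.01. The sign was opposite in the bright and in the dim arrays for 22 members (56.4%, against 39.3% of all genes), and 18 of these were higher in the bright and lower in the dim arrays. PRKDC and the 7 members that were higher without overlap had the same sign in both, as groups that do not overlap must. The part of control replicate 1 and of array brightness in the other differences was not tested.

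**Figure D1:**
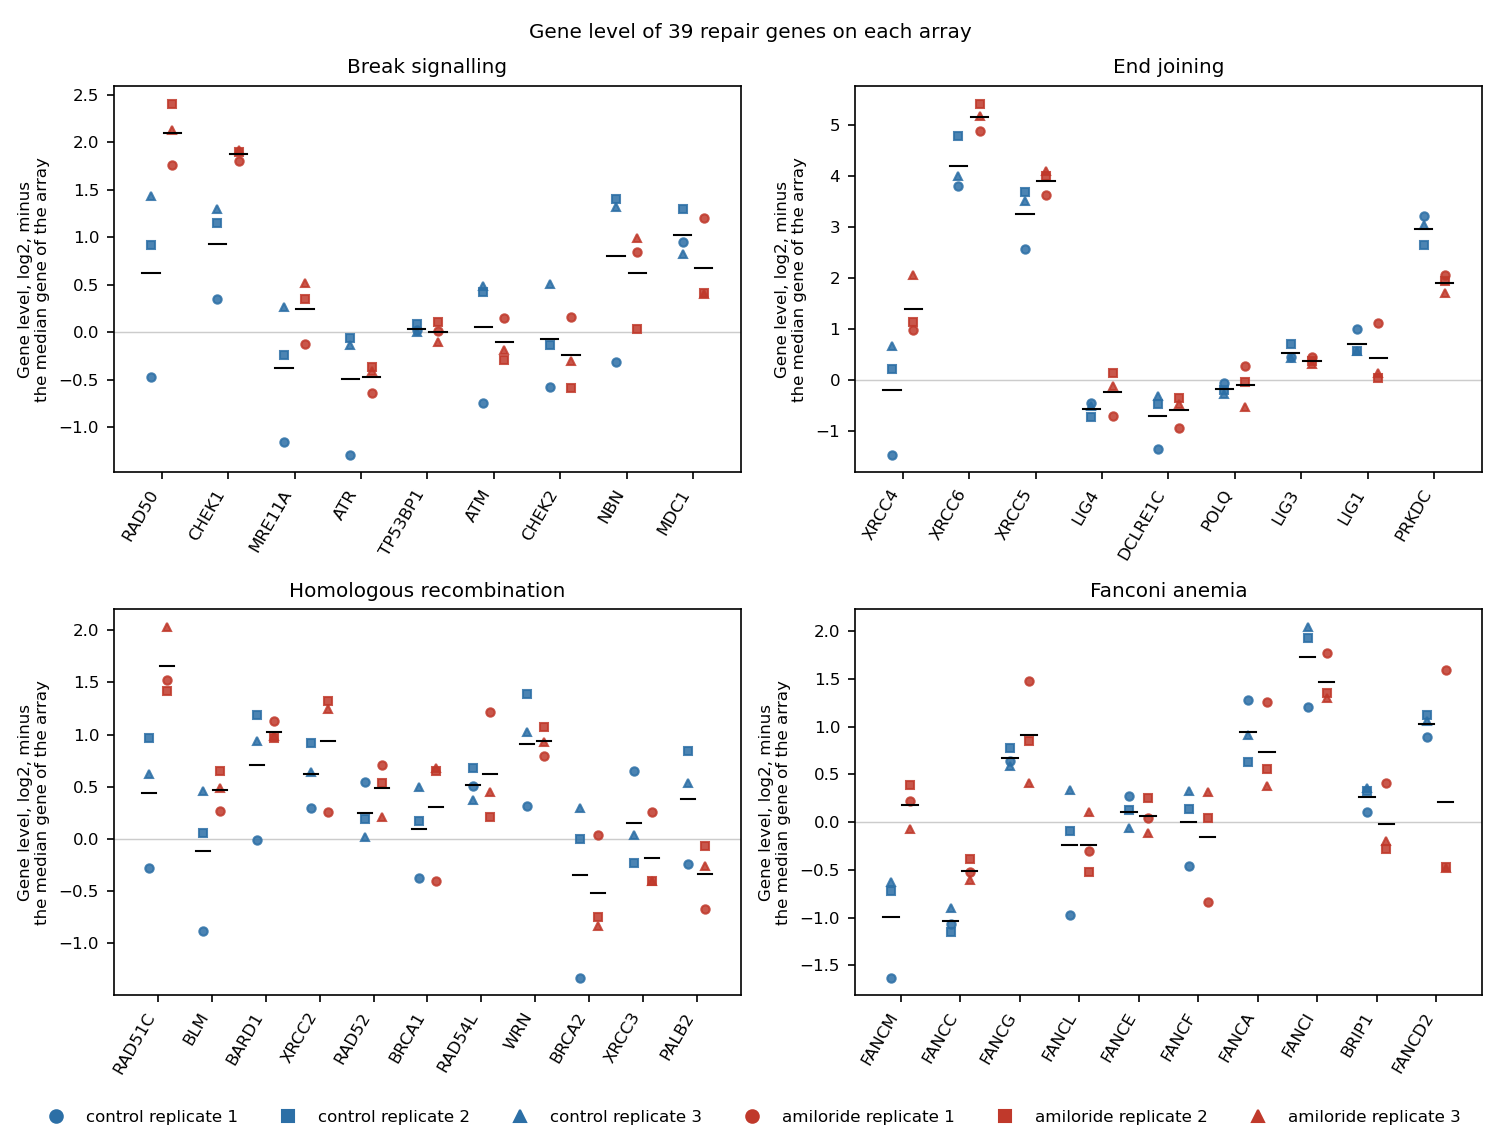
Gene level of the 39 repair genes on each of the 6 arrays, in log2 units relative to the median gene of the array, with 1 panel per role group. Circles, squares and triangles are replicates 1, 2 and 3, control in blue and amiloride in red, and bars are group means; levels of different genes come from different probe sets and are not to be ranked. PRKDC lies between 1.70 and 2.06 under amiloride and between 2.64 and 3.20 in control, and RAD50 between 1.76 and 2.41 against -0.48 to 1.44.

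To see which short motifs the 7 members that were higher without overlap share, their promoters were compared. In RefSeq promoters (GRCh38.p14), the 250 bases before the first listed start of a gene were searched on both strands for an E2F motif (TTTCCCGC or TTTGGCGC), the CCAAT box (CCAAT), an NRF1 motif (GCGCATGCG) and an ETS motif (CCGGAAGT), none of which contains another. An entry was found for 34 of 39 members, including all 7. No motif was common to the 7: CCAAT occurred in CHEK1, XRCC6 and FANCM, the ETS motif in RAD50 and the E2F motif in FANCC, while RAD51C and XRCC4 held none of these letters in the window. The last 120 bases before the start are shown for the 5 with a match, 5′ to 3′ on the strand of the gene, with the match in capitals (ATTGG is CCAAT on the other strand).
RAD50, chr5:132556857-132556976, plus strand: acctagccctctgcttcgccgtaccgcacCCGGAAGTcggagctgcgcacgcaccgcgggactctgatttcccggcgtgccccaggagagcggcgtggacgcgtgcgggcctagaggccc
CHEK1, chr11:125626109-125626228, plus strand: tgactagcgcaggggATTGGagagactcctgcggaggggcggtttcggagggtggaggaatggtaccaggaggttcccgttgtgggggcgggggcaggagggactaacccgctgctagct
XRCC6, chr22:41621175-41621294, plus strand: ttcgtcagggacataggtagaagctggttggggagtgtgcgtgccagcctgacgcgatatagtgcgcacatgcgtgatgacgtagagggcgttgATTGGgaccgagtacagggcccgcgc
FANCM, chr14:45135810-45135929, plus strand: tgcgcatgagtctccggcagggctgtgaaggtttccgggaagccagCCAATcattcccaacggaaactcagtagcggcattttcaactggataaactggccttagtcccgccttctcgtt
FANCC, chr9:95317710-95317829, minus strand: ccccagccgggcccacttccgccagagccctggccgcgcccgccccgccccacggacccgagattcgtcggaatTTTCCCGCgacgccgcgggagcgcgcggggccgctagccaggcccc
Over all 34 members the CCAAT box was found in 16 (47.1%, against 33% of 27305 promoters), the ETS motif in 7 (20.6%, against 3.64%), the E2F motif in 2 (5.88%, against 1.96%) and the NRF1 motif in 0 (1.78% of all). The 7 with the ETS motif were MRE11A, RAD50, LIG4, POLQ, BRCA2, PALB2 and FANCD2, of which only RAD50 was higher without overlap. A match is a description of the sequence and not a binding site.

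Of the 9 break signalling genes, RAD50 and CHEK1 were higher on all amiloride arrays and the other 7 overlapped between the groups. RAD50, the ATPase that tethers broken ends in the MRE11 complex, read 1.76, 2.41 and 2.13 on amiloride arrays 1 to 3 and -0.48, 0.92 and 1.44 on the control arrays. Its lowest amiloride array was above its highest control array, and control replicate 1 was far below the other controls. The difference was 1.47 ± 0.45 (SE, limma, adjusted p = 0.331), and 0.92 without control replicate 1. All 32 of its probe sets had a higher mean under amiloride, 22 of them without overlap, whereas the median gene had 40.8% of its probe sets higher and the range from the 5th to the 95th percentile was 7.14% to 90.9%. CHEK1, the checkpoint kinase that ATR phosphorylates, read 1.81, 1.89 and 1.92 under amiloride and 0.35, 1.15 and 1.30 in control. The amiloride arrays lay close together (SD 0.06) and the controls spread more (SD 0.51). This was a difference of 0.94 ± 0.30 (limma, adjusted p = 0.337), or 1.92-fold, and 0.65 without control replicate 1. Of its probe sets 20 of 24 were higher, 9 of them without overlap.

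MRE11A, the nuclease of the same complex as RAD50, read -0.12, 0.35 and 0.52 under amiloride and -1.16, -0.23 and 0.27 in control, so that the groups overlapped. The difference of 0.62 ± 0.38 (limma, adjusted p = 0.563) had a 95% interval of -0.22 to 1.47 and was 0.23 without control replicate 1. NBN, the third subunit of that complex, had a difference of -0.18 with the widest interval of the 9 genes, -1.24 to 0.88, and its control arrays ran from -0.32 in replicate 1 to 1.41 in replicate 2. NBN was 1.16 between the bright arrays and -0.85 between the dim arrays, and ran from -0.74 (without control replicate 1) to 0.12 (without control replicate 2) with 1 array left out. MDC1, the adaptor that reads phosphorylated H2AX beside a break, read 1.20, 0.41 and 0.41 under amiloride and 0.95, 1.30 and 0.83 in control. Amiloride replicate 1 was among its higher arrays and the other 2 were its lowest. Its difference was -0.35 ± 0.30 (limma, adjusted p = 0.665), although 18 of 19 probe sets had a lower mean under amiloride.

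ATM, the kinase at the head of the response to breaks, read 0.15, -0.29 and -0.18 under amiloride and -0.75, 0.43 and 0.49 in control. Control replicate 1 was its lowest array and the other 2 controls its highest. The difference was -0.16 ± 0.36 (limma, adjusted p = 0.861, 95% interval -0.97 to 0.64), with 44 of 61 probe sets lower. That left 27.9% higher, against 40.8% in the median gene. The ATM difference was 0.90 between the bright arrays and -0.69 between the dim arrays, the sign turning with the pair compared. It was -0.56 without control replicate 1, where the groups did not overlap, and 0.05 without control replicate 3. A further 34 probe sets are annotated to both ATM and its neighbour NPAT, a regulator of histone genes, and were left out: their median differed by 0.19. NPAT itself, from its own probe sets, read 0.92, 0.48 and 0.23 under amiloride against -0.69, 0.15 and 0.10 in control. ATR, the kinase of stalled forks, differed by 0.02 (interval -0.76 to 0.81), CHEK2, the kinase downstream of ATM, by -0.18 (-0.93 to 0.58), and TP53BP1, which shields ends from resection, by -0.03 (-0.55 to 0.49).

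The 9 end joining genes held the only member that was lower without overlap together with some of the larger positive differences. PRKDC, which encodes DNA-PKcs, the large catalytic subunit of the kinase that Ku activates at a break, read 2.06, 1.94 and 1.70 under amiloride and 3.20, 2.64 and 3.03 in control. All control arrays lay above all amiloride arrays, and control replicate 1, the lowest array of RAD50 and CHEK1, was here the highest. The difference was -1.06 ± 0.26 (limma, adjusted p = 0.268), or 2.08-fold lower, and stayed between -1.22 and -0.94 when any 1 array was left out. Of 106 probe sets along the gene 104 had a lower mean under amiloride, 66 of them without overlap. The share without overlap among probe sets of all genes was not computed, and probe sets of a gene are not replicates. On the deposited values without centring, the groups overlapped, at 6.97, 5.41 and 5.42 against 7.90, 6.03 and 6.76 (difference -0.96).

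XRCC6 and XRCC5 encode Ku70 and Ku80, the ring that first binds a broken end and brings in DNA-PKcs. XRCC6 read 4.87, 5.42 and 5.17 under amiloride and 3.81, 4.78 and 4.01 in control. Control replicate 2 came close to the lowest amiloride array, and the groups did not overlap. The difference was 0.96 ± 0.32 (limma, adjusted p = 0.347), or 1.94-fold, with 23 of 28 probe sets higher, and was 0.76 without control replicate 1. XRCC5 read 3.63, 4.0 and 4.09 under amiloride and 2.56, 3.68 and 3.51 in control, and here control replicate 2 lay just above amiloride replicate 1. The difference was 0.66 ± 0.33 (limma, adjusted p = 0.496, interval -0.09 to 1.41), and 29 of 31 probe sets were higher; without control replicate 1 it was 0.31. XRCC4, the scaffold that holds ligase IV, read 0.97, 1.13 and 2.06 under amiloride and -1.47, 0.22 and 0.66 in control. Its groups did not overlap, but replicates of both spread widely. It had the largest difference of the 39 members, 1.59 ± 0.53 (limma, adjusted p = 0.350), which was 0.95 without control replicate 1, and its groups overlapped when the mean over probe sets or only the brighter probe sets were used.

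LIG4, the ligase that XRCC4 carries, differed by 0.34 ± 0.28 (limma, adjusted p = 0.660) with 7 of 12 probe sets higher. DCLRE1C, which encodes the hairpin-opening nuclease Artemis, differed by 0.13 (interval -0.61 to 0.87) and POLQ, the polymerase of microhomology-mediated joining, by 0.08 (-0.54 to 0.69). The other ligases were on the lower side. LIG1, the replicative ligase, differed by -0.28 (-1.03 to 0.47), with 32 of 36 probe sets lower, and LIG3, the ligase of single-strand break repair and alternative end joining, by -0.15 (-0.68 to 0.38), with 31 of 35 lower. Neither ligase passed the test, and the arrays of both groups overlapped in each. Their shares of higher probe sets, 11.1% and 11.4%, lay inside the 5th to 95th percentile of all genes, 7.14% to 90.9%.

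**Figure D2:**
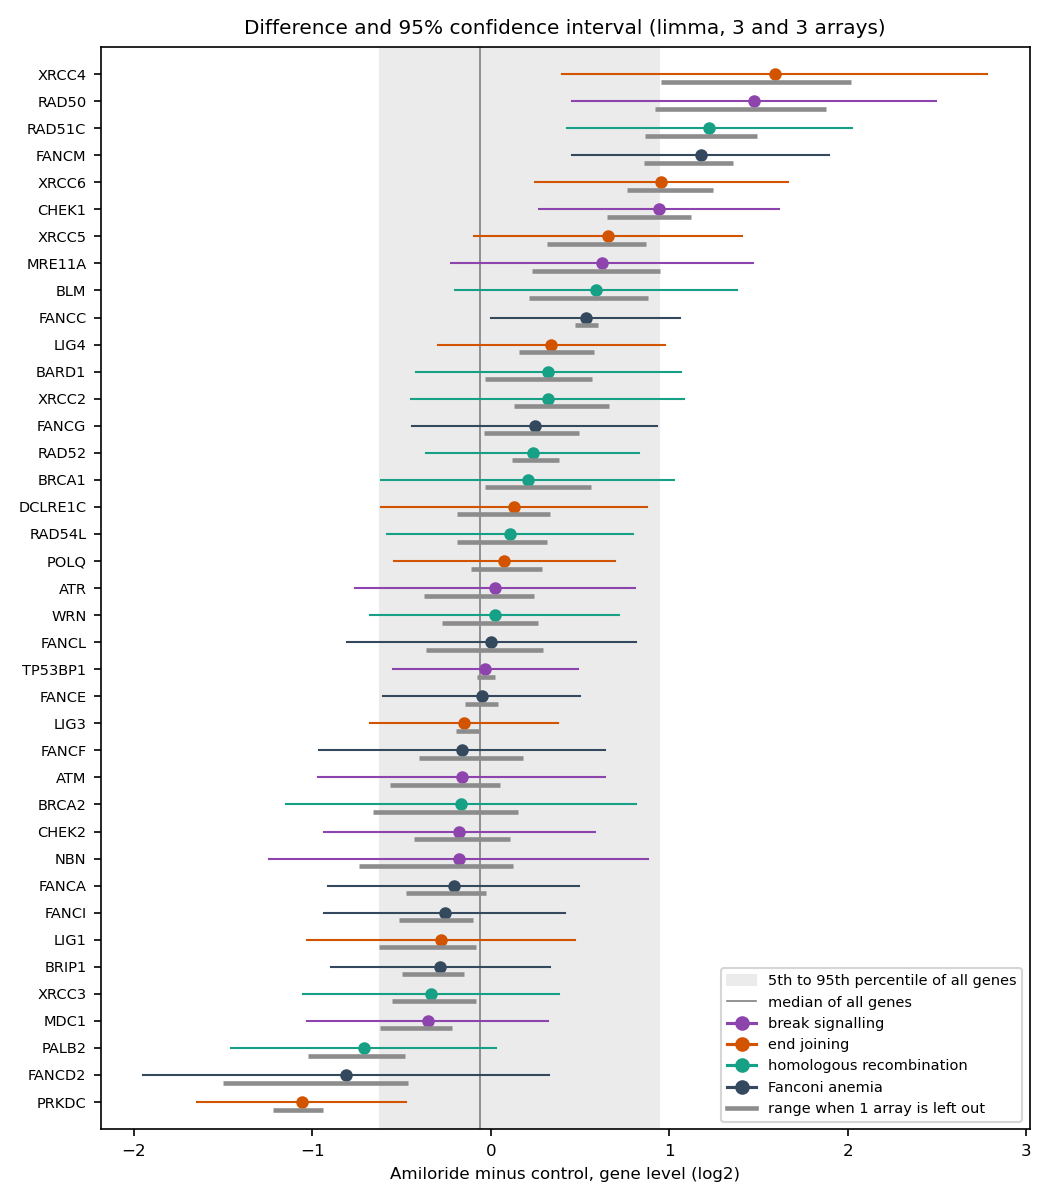
Amiloride minus control for the 39 genes (dot) with the 95% interval from limma (thin line), coloured by role, and the range when any 1 array is left out (grey bar); x axis in log2 units of the gene level. The shaded band holds the 5th to 95th percentile of all 18674 genes, -0.62 to 0.94. XRCC4, RAD50, RAD51C, FANCM and XRCC6 lie above the band with CHEK1 at its edge, PALB2, FANCD2 and PRKDC lie below it, and the others lie inside it.

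Among the 11 homologous recombination genes 8 lay above the median of all genes and 1 was higher without overlap. RAD51C, which acts in strand exchange between sister chromatids, read 1.53, 1.42 and 2.03 under amiloride and -0.28, 0.97 and 0.62 in control. Every amiloride array was above every control. The difference was 1.22 ± 0.35 (limma, adjusted p = 0.309), and 0.86 without control replicate 1. All 16 probe sets were higher, 8 without overlap. PALB2, the bridge between BRCA1 and BRCA2, read -0.67, -0.06 and -0.26 under amiloride and -0.24, 0.85 and 0.54 in control, so that control replicate 1 fell among the amiloride arrays. The difference was -0.71 ± 0.33 (limma, adjusted p = 0.470, interval -1.46 to 0.03), with 21 of 22 probe sets lower, and was -1.02 without control replicate 1. BLM, the helicase that dissolves joint molecules, read 0.27, 0.65 and 0.49 against -0.88, 0.06 and 0.46, a difference of 0.59 ± 0.35 (limma, adjusted p = 0.557), which was 0.21 without control replicate 1. XRCC3, which joins RAD51C in a complex, read 0.26, -0.40 and -0.40 against 0.66, -0.23 and 0.04, a difference of -0.33 ± 0.32 (limma, adjusted p = 0.695). It was -0.08 without control replicate 1, and its difference from RAD51C was not tested.

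BRCA1, which promotes resection and recruits PALB2, read -0.40, 0.65 and 0.68 under amiloride and -0.37, 0.17 and 0.50 in control. Replicate 1 was the lowest array of both groups. The difference was 0.21 ± 0.36 (limma, adjusted p = 0.824, interval -0.61 to 1.03). BRCA2, the tumour suppressor that PALB2 brings to breaks, read 0.04, -0.75 and -0.83 under amiloride and -1.33, -0.0027 and 0.29 in control, the order of replicate 1 and the others being reversed between the groups. Its difference was -0.17 ± 0.44 (limma, adjusted p = 0.885), from 1.37 between the bright arrays to -0.93 between the dim arrays. BARD1, the partner of BRCA1 in its ubiquitin ligase, differed by 0.32 (interval -0.42 to 1.07), XRCC2, which also acts in recombination, by 0.32 (-0.44 to 1.08) and RAD52, which anneals single strands, by 0.23 (-0.36 to 0.83). RAD54L, the motor that assists strand invasion, differed by 0.11 (-0.58 to 0.79) and WRN, the Werner syndrome helicase, by 0.02 (-0.67 to 0.72).

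The 10 Fanconi anemia genes were split evenly, 5 above and 5 below the median of all genes. FANCM, the translocase that recognises stalled forks and anchors the core complex, read 0.22, 0.38 and -0.07 under amiloride and -1.63, -0.72 and -0.63 in control. All amiloride arrays were above all controls, with control replicate 1 the lowest. The difference was 1.18 ± 0.32 (limma, adjusted p = 0.299), and 0.86 without control replicate 1. Of its probe sets 33 of 36 were higher, 14 without overlap. FANCC, a subunit of the core complex, read -0.52, -0.39 and -0.61 under amiloride and -1.07, -1.15 and -0.90 in control. Control replicate 2 was its lowest array, and its controls lay close together. The difference was 0.53 ± 0.24 (limma, adjusted p = 0.455), from 0.47 to 0.60 with any 1 array left out, and the groups overlapped on the values without centring.

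FANCD2, the protein that the core complex ubiquitinates, read 1.59, -0.47 and -0.48 under amiloride and 0.89, 1.13 and 1.06 in control. The 3 controls lay close together, amiloride replicate 1 was above them and the other 2 far below. The difference was -0.81 ± 0.51 (limma, adjusted p = 0.573, interval -1.95 to 0.33) with all arrays, and -1.50 without amiloride replicate 1. Between the bright arrays it was 0.70 and between the dim arrays -1.56. Of 58 probe sets 52 were lower on average. FANCI, the partner of FANCD2 in the clamp, differed by -0.26 (interval -0.93 to 0.42), with 40 of 51 probe sets lower. The shares of higher probe sets, 10.3% for FANCD2 and 21.6% for FANCI, lay inside the 5th to 95th percentile of all genes, 7.14% to 90.9%. BRIP1, the helicase FANCJ that binds BRCA1, read 0.41, -0.28 and -0.19 against 0.11, 0.32 and 0.35, again with amiloride replicate 1 above all others, a difference of -0.28 ± 0.27 (limma, adjusted p = 0.697). FANCL, the ubiquitin ligase of the core complex, differed by 0.00 (-0.81 to 0.81). The other core subunits were FANCA at -0.21 (-0.91 to 0.50), FANCE at -0.05 (-0.60 to 0.50), FANCF at -0.16 (-0.96 to 0.64) and FANCG at 0.25 (-0.44 to 0.93).

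**Figure D3:**
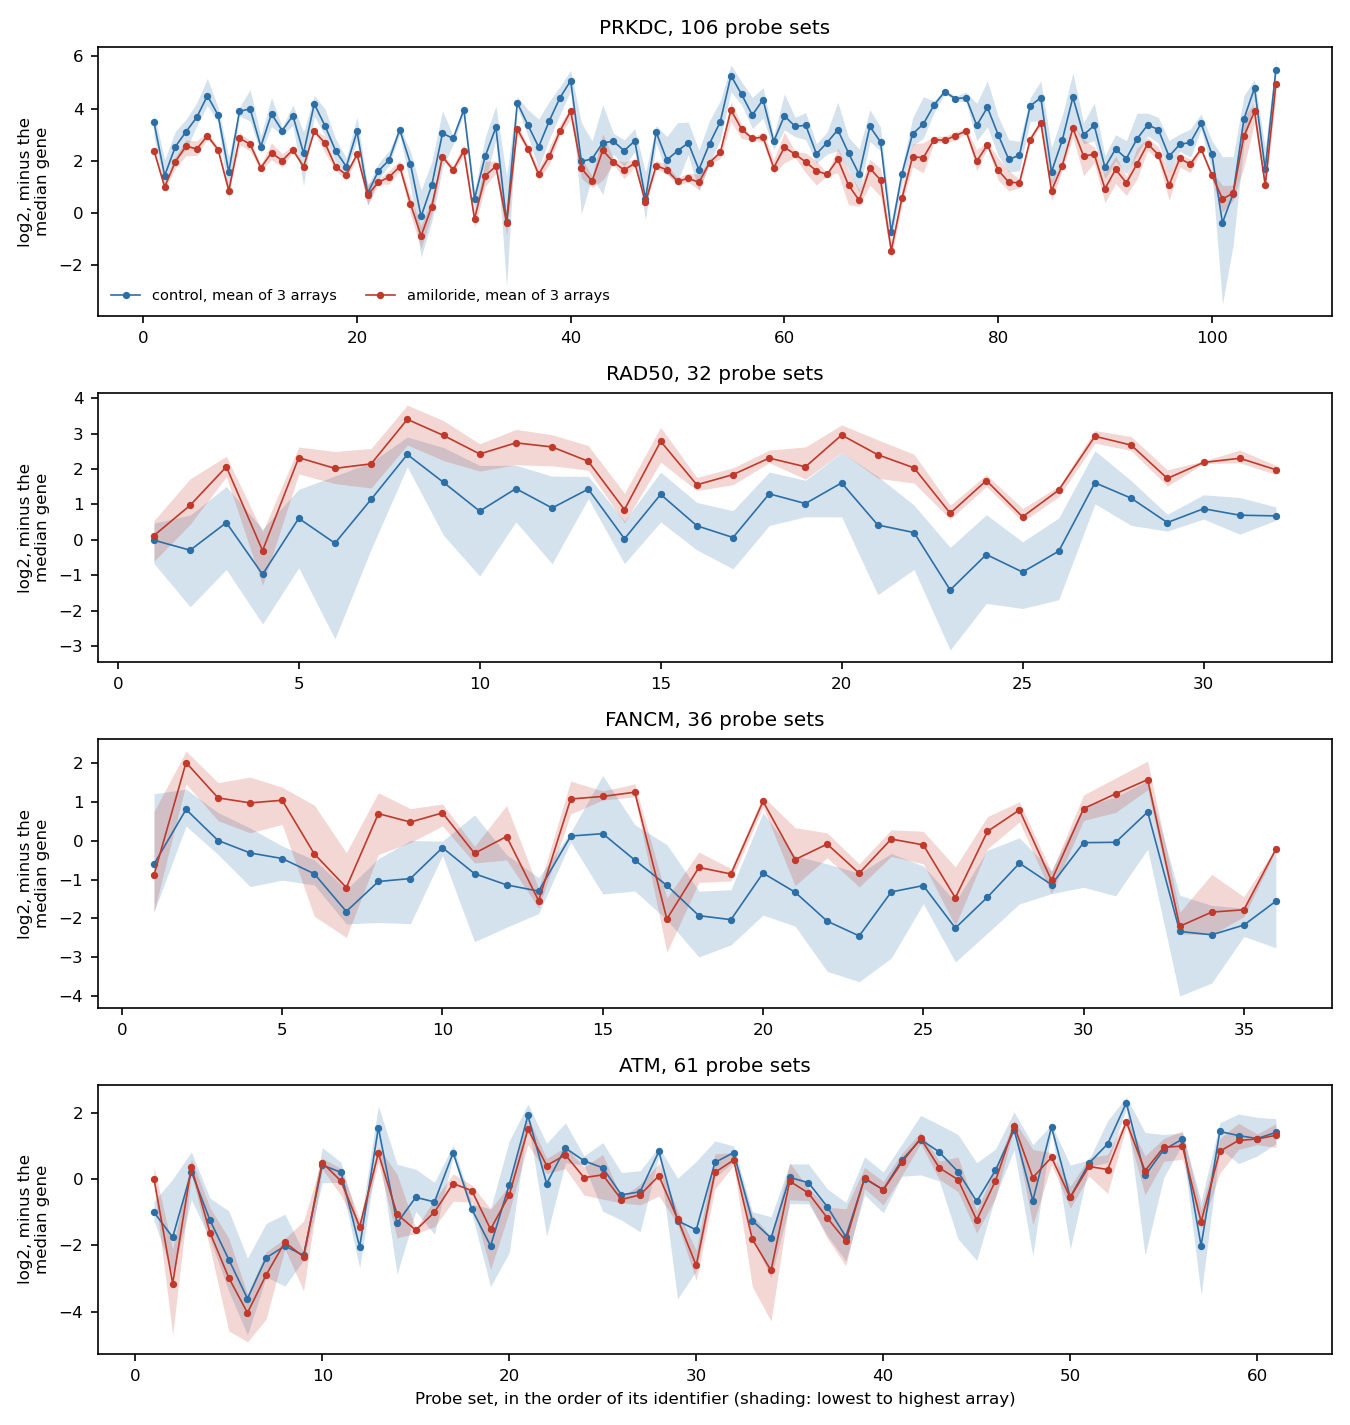
Probe sets of PRKDC, RAD50, FANCM and ATM in the order of their identifiers (x axis, not distance along the gene), with the log2 intensity relative to the median gene of the array (y axis). Lines are means of 3 control (blue) and 3 amiloride (red) arrays and shading runs from the lowest to the highest array. The amiloride mean is below control at 104 of 106 probe sets of PRKDC, above it at all 32 of RAD50 and 33 of 36 of FANCM, and below it at 44 of 61 of ATM with wide overlap.

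A further 43 genes of the same pathways were examined. None passed the test, 26 lay above and 17 below the median of all genes, 8 were higher and 4 lower without overlap (10.2% and 8.19% of all genes). NHEJ1, which encodes the XRCC4-like end joining factor XLF, read 1.60, 2.02 and 2.21 under amiloride and 0.07, 1.00 and 0.56 in control, a difference of 1.40 ± 0.31 (limma, adjusted p = 0.240). It was separated from the controls by a wider gap than XRCC4. EXO1, the resection nuclease, differed by 0.93 ± 0.26 (limma, adjusted p = 0.302) and TOPBP1, the activator of ATR, by 0.79 ± 0.25 (limma, adjusted p = 0.337). TOP3A, the topoisomerase that works with BLM, differed by 0.80 ± 0.27 (limma, adjusted p = 0.356). Of the proliferation genes, many of which are expressed in the same phases of the cell cycle as recombination genes, 17 of 18 were measured, 11 above and 6 below the median of all genes, and 0 passed. Their median levels were 2.84, 2.15 and 2.36 under amiloride and 2.04, 2.83 and 2.22 in control. The groups overlapped in these medians. MCM2, MCM5, MCM6 and MCM7, subunits of the replicative helicase, were higher without overlap (10.2% of all genes), and no gene of the list was lower without overlap. The lowest differences were TOP2A at -0.71, the proliferation marker MKI67 at -0.68, RRM2 at -0.55, PCNA at -0.47 and the helicase subunit MCM4 at -0.45, none past the test. The part of proliferation in the repair genes was not tested.

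The study compared splicing, so each probe set was also set against its own gene. The splicing index subtracts the gene level from the log2 value of each of its probe sets on that array, and was tested for 271399 probe sets of sufficient brightness, 1126 of them from the 39 members. None passed in either direction (limma, 0% of all and 0 of the members, lowest adjusted p of a member 0.951). At an unadjusted p under 0.05, 14 member probe sets were higher (1.24%, against 1.9% of all) and 23 lower (2.04%, against 2.6%). Without overlap between the groups, 36 were higher (3.2%, against 4.99%) and 66 lower (5.86%, against 5.8%).

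Among member probe sets without overlap, the lowest splicing indices belonged to XRCC4, XRCC6 and CHEK1, whose gene levels were themselves higher without overlap, and to BLM, whose gene level overlapped between the groups. XRCC4 probe set 2818480 had indices of -3.73, -2.14 and -2.82 under amiloride and -0.25, -0.48 and -0.70 in control. The difference was -2.42 ± 0.44 (limma, adjusted p = 0.951), while its own log2 value differed by -0.73, the rest being the higher gene level. XRCC4 probe set 2818499 differed by -2.16 ± 0.60, XRCC6 probe set 3946972 by -2.06 ± 0.42 and CHEK1 probe set 3354802 by -1.63 ± 0.71. The XRCC6 probe set read log2 values of 1.97 to 4.73, where its gene without centring read 7.73 to 9.78. The XRCC4 probe sets were also dim, at 2.15 to 3.69 (2818480) and 2.26 to 3.96 (2818499), where their gene read 3.22 to 5.88. BLM probe set 3608322 had indices of -0.72, -1.35 and -1.07 under amiloride and 1.70, 1.45 and 0.01 in control, a difference of -2.10 ± 0.48, of which -1.41 was in the probe set itself. The highest were POLQ probe set 2691579 at 1.41 ± 0.43, MRE11A probe set 3387037 at 1.34 ± 0.36, XRCC3 probe set 3580856 at 1.22 ± 0.58, FANCC probe set 3215790 at 1.18 ± 0.39 and CHEK1 probe set 3354826 at 1.14 ± 0.52. CHEK1 thus held a probe set in each of these lists, but both of its probe sets rested in large part on control replicate 1. Without that array the CHEK1 differences were -0.72 (3354802) and 0.55 (3354826), and that of XRCC3 probe set 3580856 was 0.51. The other probe sets named here then ran from -2.31 to -1.60 among the lowest and from 0.99 to 1.35 among the highest. With 16 added before log2, XRCC4 probe set 2818480 was no longer among those tested. The others ran from -1.39 to -1.10 among the lowest and from 0.44 to 0.52 among the highest. CHEK1 probe set 3354826 and XRCC3 probe set 3580856 then overlapped between the groups.

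In ATM the tested probe sets ranged from -0.83 ± 0.40 (probe set 3347714) to 1.17 ± 0.49 (3347660), and in FANCM from -1.45 ± 0.88 (3534249) to 0.81 ± 0.52 (3534280). All 4 overlapped between the groups. In PRKDC they ranged from -0.81 ± 0.31 (3134151) to 1.97 ± 1.31 (3134192). The former did not overlap and its log2 value differed by -1.77, while the latter rested on an index of -6.71 in control replicate 1 and was 0.29 when that array was left out. No single probe set of PRKDC passed the test.

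The methods of the study set 3 criteria, computed here for probe sets on group means: a splicing index and a log2 ratio both at or below -1.58 (minus the log2 of 3) and a correlation of at least 0.7 between the profiles of the gene in both groups. Applied to all probe sets, 1362 (0.382%) in 1271 genes (6.81%) met them, and 1 probe set of 1 member did (2.56% of the 39). The 1362 became 146 with 16 added before log2, 462 among the brighter probe sets and 1176 after quantile normalization, and ran from 1066 without control replicate 2 to 3577 without control replicate 3. This was NBN probe set 3143991, with log2 values of 5.60, 2.96 and 3.99 under amiloride and 0.87, 13.53 and 4.57 in control. Control replicate 2 alone was high and control replicate 1 low. Its index was -1.87, its ratio -2.14 and its profile correlation 0.93, and it missed the criteria when control replicate 2 or amiloride replicate 2 was left out, after quantile normalization or among the brighter probe sets. The lowest ATM index that met the correlation was -1.32 (ratio -1.30), short of both limits, and FANCM reached an index of -1.93 with a ratio of -0.77. The list of the study itself, made by exon, names ATM, FANCM, BRCA1, BRIP1 and DCLRE1C among others. Its text also reports PRKDC among apoptosis-related genes with altered splicing. In the values used here, no probe set of ATM, FANCM, BRCA1, BRIP1 or DCLRE1C reached the limit of the log2 ratio. In PRKDC 1 probe set reached it, without reaching the limit of the index. Probe sets could not be placed on exons here, so the list was not compared exon by exon.

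**Figure D4:**
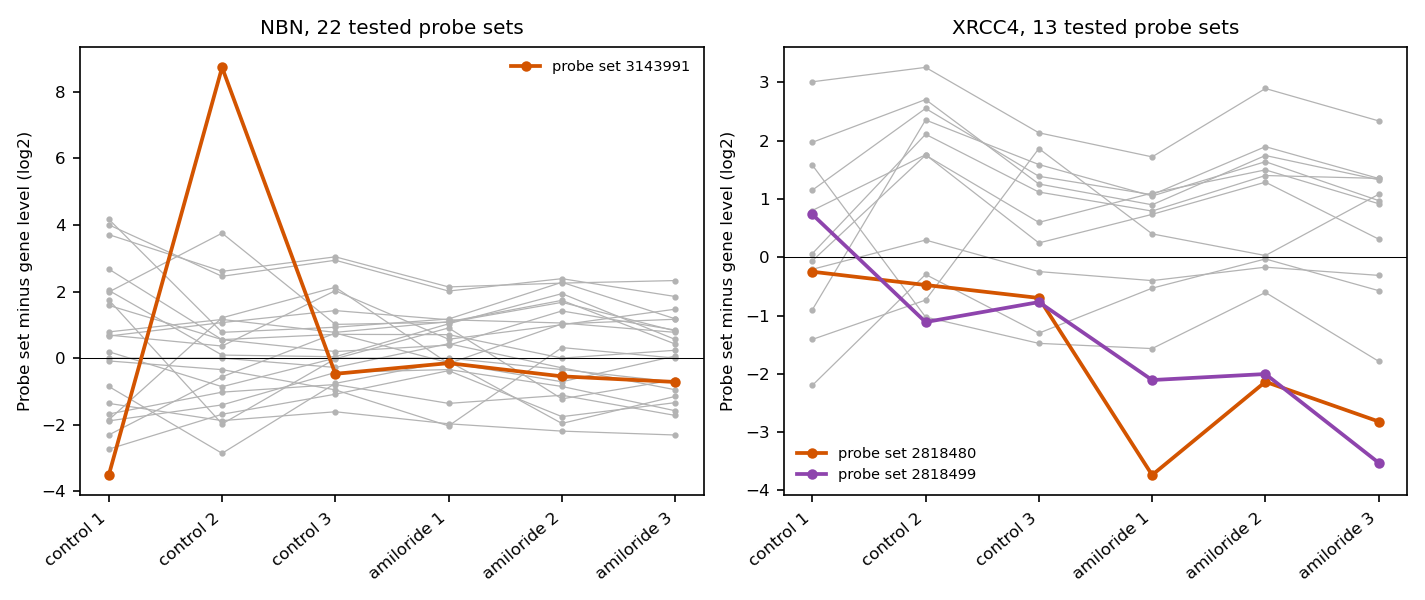
Splicing index (a probe set relative to its gene level on that array, in log2 units, y axis) on each of the 6 arrays (x axis) for the tested probe sets of NBN (22, left) and XRCC4 (13, right), 1 line per probe set. The coloured NBN probe set is at 8.74 in control replicate 2 and at -3.51 in control replicate 1, against -0.72 to -0.15 under amiloride; the coloured XRCC4 probe sets lie at -2.0 or lower on all amiloride arrays and at -1.11 or higher in control.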

How the data were processed

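Gene expression was measured in Huh-7 cells on 6 exon arrays, 3 per group. With dChip, the authors corrected the scans by means of background probes and normalized them, and the deposited table gives a linear intensity for every probe set on every array. All 6 columns were used and 0 were left out. Because the deposited intensities differed in scale, they were set to at least 1, taken to log2, and each gene level was centred on the median gene of its array. The centring assumes that the median gene did not differ between arrays, and the number of arrays limits the precision.

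Probe sets were named from the platform annotation, in which 357582 of 1408285 probe sets had 1 gene symbol, 15322 several and 1035381 none. Of 19560 symbols 16472 were current, 2966 were updated and 122 stayed unchanged. The annotation gave no exons or coordinates. Gene levels were medians over at least 3 probe sets, dim ones included. For splicing indices, dim probe sets, whose log2 value averaged under 2.80 (the median of all probe sets), were dropped.

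Tests used R 4.3.3 with limma 3.58.1 (lmFit and eBayes, two-sided, prior degrees of freedom 5.37 for gene levels and 3.69 for splicing indices), with Benjamini-Hochberg adjustment over all features and a threshold of 0.05. The scripts were tested on simulated data. No set test was made. The members, the lists and the tests were chosen with earlier results of these data known. Named were the 4 members with the smallest p in each role group, ATM, FANCM, PRKDC, BRCA1 and BRCA2, with all others given by their difference; the 5 lowest and 5 highest splicing indices without overlap; the lowest and highest of ATM, FANCM and PRKDC; and the 4 further pathway genes with the smallest p. NPAT and the proliferation genes given were named after their values were seen. Alternatives were no centring, quantile normalization, a filter on dim probe sets, 16 added before log2, means over probe sets, another variance model, the replicate number as a block and leaving out each array. Array brightness as a block was added after seeing the data.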

Additional observations from a re-analysis of the deposited data

How the results depend on the processing

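Across 14 alternatives for the gene level, 0 members passed the threshold in each, the lowest adjusted p of a member being 0.0996 (limma, array brightness as a block, RAD50). RAD50, CHEK1, RAD51C, FANCM, XRCC6, XRCC4, FANCC and PRKDC had the same sign in all 14. The lack of overlap fixes this when an array is left out. The replicate block, the brightness block and the other variance model leave each difference unchanged, so they could not turn a sign. Of the other members up to 7 changed sign, the most without control replicate 1. The count of all genes past the threshold, 2 higher and 0 lower, was 6 higher without centring, 1 with the replicate block, 0 with 16 added and 0 to 3 with 1 array left out, where the count lower was 0 to 1. Members higher without overlap numbered 7 to 13 with 1 array left out, 13 without amiloride replicate 1. Over all 18674 genes, 2423 to 3079 were then higher without overlap, 3079 of them without amiloride replicate 1. Members lower without overlap, 1 in the report, numbered 0 without centring and with 16 added, 2 after quantile normalization and with dim probe sets left out, and 1 to 8 with 1 array left out, the most without amiloride replicate 1 and 6 without control replicate 1. Without centring, 1169 of all genes were higher and 94 lower without overlap, against 1903 and 1530. Those lower numbered 937 with 16 added, 1432 after quantile normalization and 1200 of 17018 with dim probe sets left out. With 1 array left out, 2202 to 3030 of all genes were lower without overlap. They numbered 2707 without amiloride replicate 1 and 2715 without control replicate 1. Member probe sets meeting the 3 criteria, 1 in the report, numbered 0 after quantile normalization and with dim probe sets left out, and 1 to 5 with 1 array left out. The causes were not tested, beyond the fewer arrays compared. Splicing indices gave 0 calls in every setting.

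Pairing by replicate number was examined with group means removed: gene levels of same-numbered arrays correlated at 0.163, 0.097 and 0.188, the second under the 0.1 set for pairing, and splicing indices at 0.146, 0.186 and 0.332, all over it. With the number as a block, 1 gene and 0 members passed at the gene level and 0 splicing indices, so it changed no adjusted call on a member. At an unadjusted p under 0.05 (limma) it lost FANCC (0.0712) and gained XRCC5 (0.0409) and PALB2 (0.0242). Over all genes the numbers under 0.05 went from 1473 to 1855 higher and from 577 to 617 lower. At these array numbers, differences near the median standard error of 0.30 were not detectable. Much larger ones, up to the 1.59 of XRCC4, did not pass either.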

Other observations

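On a single array, the splicing index of a few member probe sets stood at least 3 log2 units above or below that on all other arrays. Control replicate 2 held 3 such high values, in the ubiquitin ligase gene FANCL, in NBN and in the helicase gene BRIP1, of 1126 member probe sets (0.266%), and 1276 of 271399 over all genes (0.470%). No other array held a high value of this kind in a member, and control replicate 1 held 149 over all genes. Low values of this kind were found 5 times in control replicate 1, of which 2 in PRKDC and 1 each in FANCL, XRCC2 and WRN, where all genes held 659, and once in control replicate 3, in FANCG. The amiloride arrays held 0 in members.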
